A study of Mus musculus with 18 samples.

Results

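Squalene epoxidase (Sqle) and 9 of the enzymes that act after it on the way to cholesterol were followed in newborn mouse liver. They make up 10 of the 31165 genes in the deposited table and were found there by symbol: Sqle, Lss, Cyp51, Tm7sf2, Msmo1, Nsdhl, Hsd17b7, Ebp, Sc5d and Dhcr7. All 10 had a mean value of at least 10 over the libraries and so belonged to the 14104 genes tested. The set was selected on measured values: Sqle drew attention by its difference between mimic and scrambled livers at postnatal day 14 (P14), and its pathway neighbours were taken with it. That comparison is therefore described here without a test, and the tests given below use other comparisons.

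C57BL/6J pups were injected into the abdominal cavity on P1, the day of birth, and on P3. They received a stabilized copy of miR-497a-5p, called the mimic, or an inert scrambled oligonucleotide as control. Liver poly(A) RNA was sequenced at P5, P7 and P14. There were 6 groups, P5 scrambled, P5 mimic, P7 scrambled, P7 mimic, P14 scrambled and P14 mimic, with 3 libraries each and 18 in all. Every pup, controls included, thus received an oligonucleotide, and no uninjected liver was analysed here. The dose (100 or 10 mg/kg in the protocol) and the litter behind each library are not stated. No separate litters or donors are tied to the libraries, so the p-values measure the spread between these libraries.

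Cholesterol is built from acetyl-CoA through mevalonate to squalene. Squalene epoxidase adds oxygen to squalene, lanosterol synthase closes the sterol rings, and the later enzymes strip methyl groups and move or reduce double bonds until cholesterol is reached. Liver is a major site of this synthesis, and the genes are known as targets of the transcription factor SREBP2, which is released when membranes are short of sterol and often acts beside the factors NF-Y and Sp1.

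The injected microRNA is shown first because its seed, bases 2 to 8, in capitals below, is what a microRNA chiefly uses to find a target. RefSeq places the mature sequence on chr11:70234730-70234751, plus strand, of GRCm38.p6.
miR-497a-5p: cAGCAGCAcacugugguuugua
The matching 7-base site in a transcript is TGCTGCT. By the GENCODE M21 annotation of the same genome build, 24.5% of the 13190 tested genes with an annotated 3′ UTR hold it there, and 2 of the 10 enzyme genes do, Hsd17b7 with 4 sites and Sc5d with 1. The 3′ UTR of Sqle, 275 bases long, holds none, and neither do those of Lss, Cyp51, Tm7sf2, Msmo1, Nsdhl, Ebp and Dhcr7. The Hsd17b7 site nearest the stop codon (chr1:169952574-169952580, minus strand), the middle one of 3 that follow each other closely further down (chr1:169950204-169950210, minus strand) and the Sc5d site (chr9:42252126-42252132, minus strand) read as follows, with the site in capitals.
Hsd17b7 first site: tctccttcataTGCTGCTttggctaatct
Hsd17b7 middle site: tgctgctggaaTGCTGCTggaatgctgct
Sc5d site: gacccttaacaTGCTGCTaaagaaacaaa
These letters are a description of the transcripts, and binding was not measured.

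The promoters of the enzymes are shown because most of the transcripts moved together with age. RefSeq start sites on GRCm38.p6 were matched for 9 of the 10 genes, all except Sqle, in windows from 250 bases before to 50 after the start. The box CCAAT, bound by NF-Y, was found on either strand in all 9 genes, against 41.1% of the 27025 genes with such a window. The box GGGCGG, bound by Sp1, was also in all 9, against 38.2%, and both boxes stood in the same window in all 9, against 14.5%. These shares are over all genes with a window, whether or not they were tested in liver, and were not matched for expression. A gene was counted if any of its windows held the box. Of the 11 windows of the 9 genes, 9 held CCAAT and 10 held GGGCGG. The letters TCACNCCAC, a core of the sterol regulatory element, were in 0 of the 9 and in 1.44% of all these genes. That count concerns these letters in this window and says nothing of whether SREBP2 binds there. In the windows of the 9 genes no match of a motif overlapped another. Windows are printed for Cyp51 (chr5:4104648-4104947, minus strand) and Nsdhl (chrX:72918271-72918570, plus strand), whose transcripts fell from P7 to P14, and for Ebp (chrX:8193463-8193762, minus strand) and Sc5d (chr9:42264251-42264550, minus strand), whose transcripts rose. Capitals mark CCAAT and its reverse, ATTGG.
Cyp51: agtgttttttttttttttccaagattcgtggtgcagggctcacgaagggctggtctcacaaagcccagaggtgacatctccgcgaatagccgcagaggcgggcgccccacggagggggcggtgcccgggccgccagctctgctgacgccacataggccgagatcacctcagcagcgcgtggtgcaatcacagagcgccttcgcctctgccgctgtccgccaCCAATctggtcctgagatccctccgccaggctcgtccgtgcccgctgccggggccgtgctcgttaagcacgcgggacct
Nsdhl: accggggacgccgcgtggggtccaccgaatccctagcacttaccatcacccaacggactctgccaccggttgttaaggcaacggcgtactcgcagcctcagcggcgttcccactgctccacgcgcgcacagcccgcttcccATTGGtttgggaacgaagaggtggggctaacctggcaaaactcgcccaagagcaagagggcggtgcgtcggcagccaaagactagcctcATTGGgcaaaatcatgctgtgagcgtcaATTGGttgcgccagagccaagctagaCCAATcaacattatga
Ebp: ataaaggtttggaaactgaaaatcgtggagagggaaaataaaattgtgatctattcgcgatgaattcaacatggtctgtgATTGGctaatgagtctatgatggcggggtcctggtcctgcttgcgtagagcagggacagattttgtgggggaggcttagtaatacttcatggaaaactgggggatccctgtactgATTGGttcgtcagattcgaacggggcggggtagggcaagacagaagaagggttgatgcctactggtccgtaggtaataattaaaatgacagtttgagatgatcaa
Sc5d: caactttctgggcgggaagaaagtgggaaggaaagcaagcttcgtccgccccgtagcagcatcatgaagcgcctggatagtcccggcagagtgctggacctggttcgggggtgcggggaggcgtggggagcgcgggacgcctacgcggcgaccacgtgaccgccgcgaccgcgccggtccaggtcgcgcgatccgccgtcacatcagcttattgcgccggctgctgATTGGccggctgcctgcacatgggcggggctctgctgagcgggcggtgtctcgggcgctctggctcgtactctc
Nsdhl held 4 such boxes, Ebp 2, and Cyp51 and Sc5d 1 each. What part these boxes had in the age changes was not tested.

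Values are scaled counts, gene counts that the authors divided by a factor per library and rounded. They summed to between 3954405 and 4248257 per library, and since they are not raw counts they give no counting error. To compare levels between genes, the values were divided by the length of the longest protein-coding transcript. On that scale, averaged over the 18 libraries, Sc5d (310 scaled counts per kb), Ebp (299) and Tm7sf2 (296) were highest, followed by Msmo1 (239), Cyp51 (211), Dhcr7 (197), Sqle (155) and Nsdhl (142). Lss (88.4) and Hsd17b7 (83.2) were lowest. The order at the top depended on the group: Tm7sf2 ranked 1st in all 4 groups at P5 and P7 and 3rd in both at P14, whereas Sc5d ranked 5th and 4th in the P5 groups, 2nd at P7 and 1st at P14. In P7 mimic livers the leading 2, Tm7sf2 (320 ± 24.0) and Sc5d (310 ± 24.2, SD, n = 3 each), did not differ beyond their spread. Of Sqle, the level per kb was 7th of the 10 in all 4 groups at P5 and P7, 10th in P14 scrambled livers and 8th in P14 mimic livers.

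**Figure D1:**
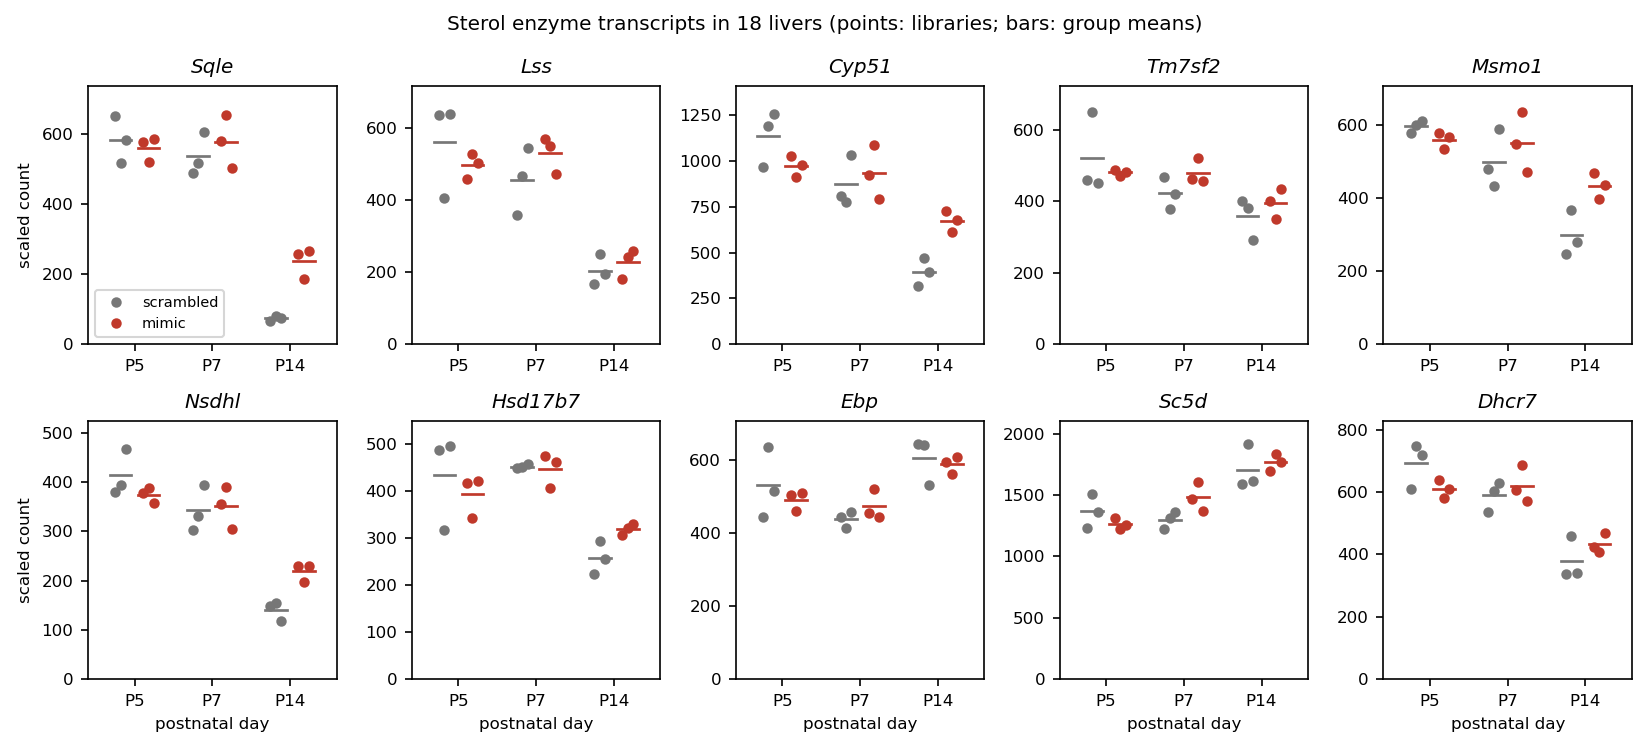
Scaled counts of the 10 enzyme transcripts (vertical axis, from 0, a separate scale for each gene) at P5, P7 and P14 (horizontal axis). Each point is 1 library, grey for scrambled and red for mimic, and short bars are means of 3 libraries; Sqle falls to 67 to 81 in P14 scrambled livers and to 187 to 266 in P14 mimic livers.

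Sqle, the first oxygen-dependent and a rate-limiting step of the pathway, changed most of the 10. At P5 its scaled counts were 650, 516 and 581 in scrambled livers and 575, 519 and 584 in mimic livers. At P7 they were 487, 515 and 604 in scrambled livers and 578, 652 and 501 in mimic livers. On both days the groups overlapped. At P14 the scrambled livers held 67, 81 and 75 scaled counts and the mimic livers 256, 187 and 266. All 6 P14 values lay below every earlier value, and the lowest mimic value at P14 was above the highest scrambled value. Averaged over both injections, Sqle fell from P7 to P14 by 2.06 on the log2 scale (SE 0.10, limma adjusted p = 9.68e-12), where log2 here is always of the scaled count plus 1. In scrambled livers, 13.9% of the P7 mean was left at P14, and in mimic livers 41.0%.

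Over the 14104 genes, 26.3% fell past the adjusted threshold of 0.05 between P7 and P14 and 24% rose. Of the 10 enzymes, 8 fell and 2 rose, with a median log2 change of -0.62 against 0.0060 for all genes tested. Complete separation, with all 6 P14 values below all 6 P7 values, was seen in 14.6% of all genes and in 6 of the enzymes: Sqle, Lss, Cyp51, Nsdhl, Hsd17b7 and Dhcr7. All 6 P14 values lay above all 6 P7 values in 10.9% of all genes and in 1 enzyme, Ebp.

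Lss, which cyclizes the epoxide to lanosterol, had 359, 467 and 545 scaled counts in P7 scrambled livers and 569, 550 and 473 in P7 mimic livers. At P14 it had 166, 251 and 194 in scrambled and 181, 242 and 258 in mimic livers. The injections overlapped at each age while the ages stood apart, and Lss fell by 1.20 (SE 0.13, limma adjusted p = 9.49e-07). In scrambled livers 44.6% of the P7 mean was left, and in mimic livers 42.8%.

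Cyp51 removes the methyl group at carbon 14 of lanosterol. It had 810, 775 and 1034 scaled counts in P7 scrambled and 922, 1084 and 790 in P7 mimic livers. At P14 the scrambled livers held 318, 471 and 396 and the mimic livers 727, 612 and 677. The P14 values lay below the P7 values in both injections, the scrambled ones further below, and Cyp51 fell by 0.81 averaged over both (SE 0.10, limma adjusted p = 4.92e-06). In scrambled livers 45.2% of the P7 mean was left, and in mimic livers 72.1%.

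Tm7sf2, a reductase of the double bond at carbon 14, changed least. Its scaled counts were 469, 378 and 421 in P7 scrambled livers, 462, 521 and 456 in P7 mimic livers, 401, 381 and 291 in P14 scrambled livers and 401, 350 and 434 in P14 mimic livers. The 2 ages overlapped. It fell by 0.27 (SE 0.10, limma adjusted p = 0.0311), a call that was lost without P7 scrambled replicate 1 (adjusted p = 0.0774), P7 mimic replicate 2 (0.0696), P14 scrambled replicate 3 (0.0970) or P14 mimic replicate 2 (0.0785). It was also lost with no filter on low values, with quantile normalization and with no mean-variance trend.

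Msmo1, Nsdhl and Hsd17b7 together take off the methyl groups at carbon 4, as an oxidase, a decarboxylating dehydrogenase and a ketone reductase. Nsdhl fell most of them, by 0.98 (SE 0.09, limma adjusted p = 9.94e-08): its scaled counts were 303, 331 and 395 in P7 scrambled and 356, 391 and 305 in P7 mimic livers, against 149, 154 and 118 in P14 scrambled and 229, 198 and 230 in P14 mimic livers. Hsd17b7 had 448, 451 and 457 in P7 scrambled, 474, 406 and 462 in P7 mimic, 224, 293 and 256 in P14 scrambled and 306, 321 and 330 in P14 mimic livers, and fell by 0.65 (SE 0.10, limma adjusted p = 3.70e-05). Both genes kept the ages fully apart. Msmo1 fell by 0.55 (SE 0.10, limma adjusted p = 0.000167), from 478, 432 and 587 in P7 scrambled and 547, 634 and 470 in P7 mimic livers to 246, 368 and 279 in P14 scrambled and 467, 396 and 434 in P14 mimic livers. For Msmo1 the highest P14 mimic value lay above the lowest P7 value, so its ages overlapped.

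Dhcr7, which makes cholesterol from 7-dehydrocholesterol, fell by 0.58 (SE 0.08, limma adjusted p = 1.64e-05). Its scaled counts were 537, 604 and 630 in P7 scrambled, 606, 687 and 570 in P7 mimic, 337, 458 and 342 in P14 scrambled and 425, 409 and 470 in P14 mimic livers. The ages stood apart and the P14 injections overlapped.

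Ebp and Sc5d, the isomerase and the desaturase that act in turn just before Dhcr7, went the other way. Ebp rose by 0.39 (SE 0.08, limma adjusted p = 0.000647), from 444, 414 and 457 scaled counts in P7 scrambled and 455, 520 and 443 in P7 mimic livers to 643, 641 and 532 in P14 scrambled and 593, 561 and 608 in P14 mimic livers. Sc5d rose by 0.32 (SE 0.06, limma adjusted p = 0.000489), from 1228, 1311 and 1360 in P7 scrambled and 1473, 1605 and 1374 in P7 mimic livers to 1595, 1916 and 1616 in P14 scrambled and 1700, 1834 and 1769 in P14 mimic livers. These were the only rises among the 10, and their calls were lost with a covariate taken from transcript length. For each library, the log2 deviations of genes from their means over the 18 libraries were rank-correlated with transcript length. This correlation, which is relative to the other libraries, ran from 0.0584 to 0.515 in P7 libraries and from -0.252 to 0.0203 in P14 libraries. Those ranges did not overlap, so the correlation and age cannot be fully told apart here. With that correlation as a covariate, Ebp changed by 0.13 (limma adjusted p = 0.241) and Sc5d by 0.20 (limma adjusted p = 0.0885), while the other 8 still fell past the threshold.

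**Figure D2:**
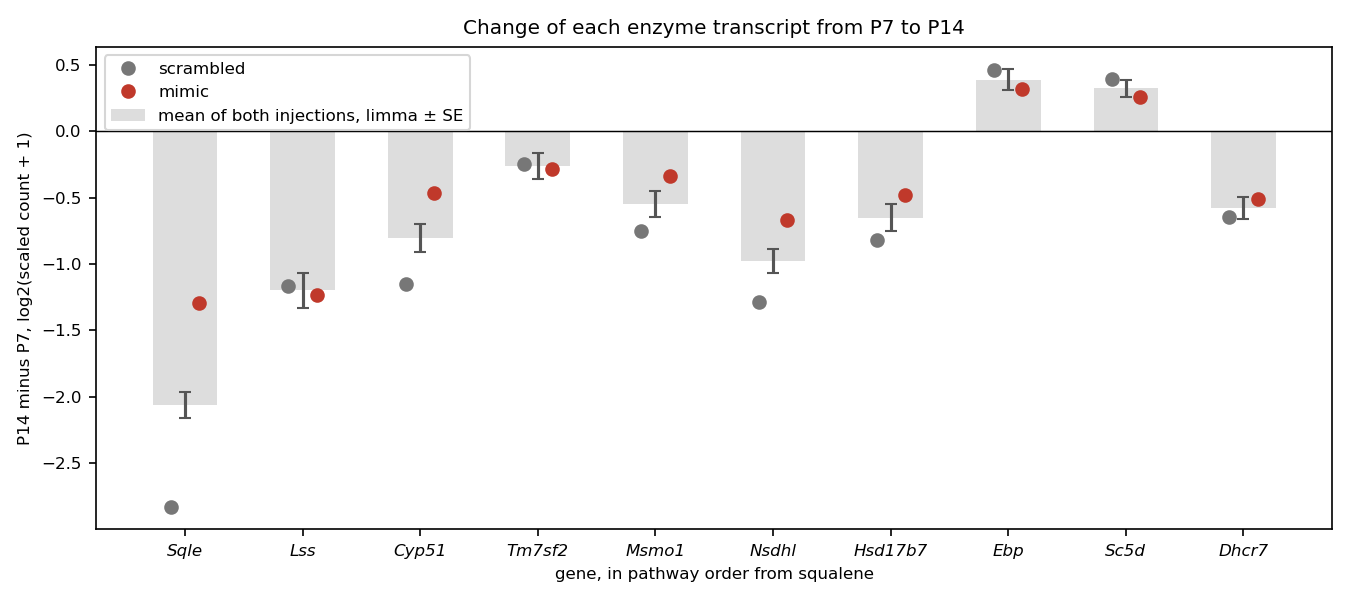
Log2 change of each enzyme transcript from P7 to P14 (vertical axis), with the genes in pathway order (horizontal axis). Bars are the limma estimates averaged over both injections with their SE, and points are the changes within scrambled (grey) and mimic (red) livers; Sqle has the lowest bar, at -2.06, and Ebp and Sc5d alone lie above 0.

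At P14 the mimic livers held more of several of these transcripts than the scrambled livers. This is the comparison that put Sqle forward, and its values are given as a description. Sqle averaged 236 ± 43.0 scaled counts in mimic livers against 74.3 ± 7.02 in scrambled livers (SD, n = 3 each), 3.18 times as much and 1.64 higher on the log2 scale. Cyp51 averaged 672 ± 57.7 against 395 ± 76.5, 1.70 times as much. The log2 difference was 0.78 for Cyp51, 0.64 for Nsdhl, 0.55 for Msmo1 and 0.31 for Hsd17b7. In these 5 genes all 3 mimic values lay above all 3 scrambled values, which 4.96% of all genes tested did in this comparison, and none of the 10 lay wholly below. The other 5 overlapped, with log2 differences of 0.21 for Dhcr7, 0.16 for Lss, 0.15 for Tm7sf2, 0.05 for Sc5d and -0.04 for Ebp. Along the pathway, Lss, the step directly after Sqle, was among those that overlapped. Over all genes, limma called 3 in this comparison, 2 higher and 1 lower, and 763 had an unadjusted p under 0.05.

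**Figure D3:**
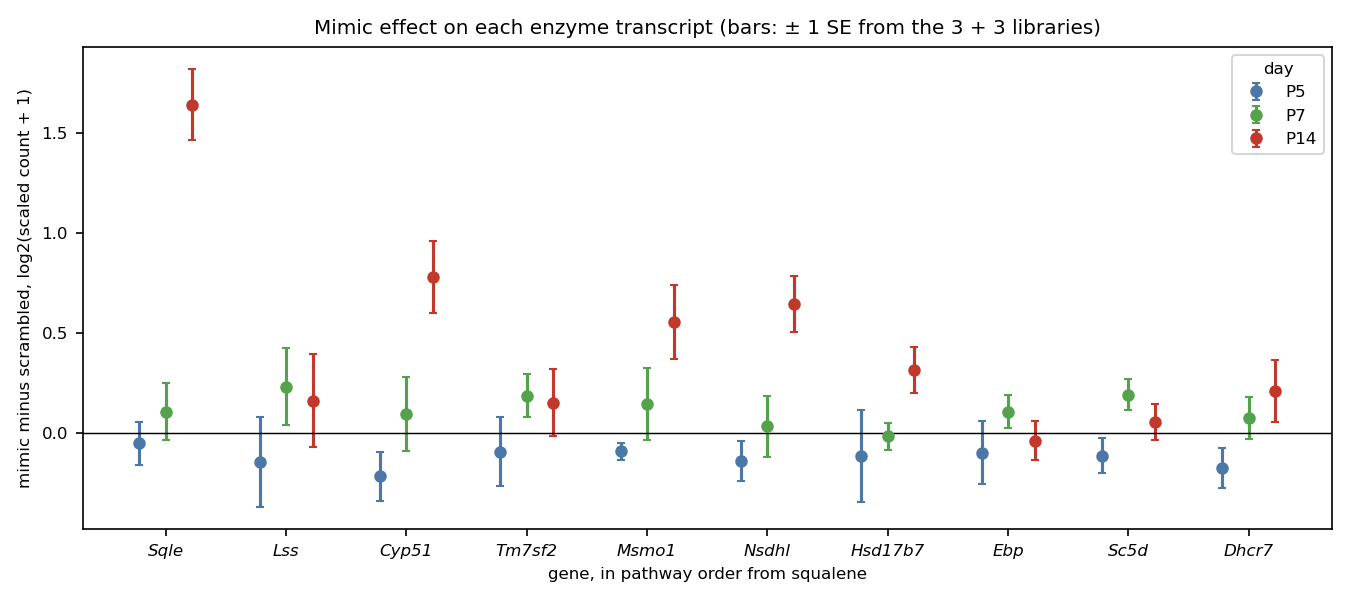
Mimic minus scrambled log2 difference of each enzyme transcript (vertical axis) at P5 (blue), P7 (green) and P14 (red), with the genes in pathway order (horizontal axis). Bars are 1 SE from the 3 and 3 libraries of that day; P5 points lie below 0 for all 10 genes, P7 points above 0 for 9, and the P14 point of Sqle stands highest at 1.64.

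Markers of other cells were followed beside the enzymes, in lists chosen with earlier results of these data known. Their P14 differences between injections are therefore given as a description, without a test. In bulk tissue, fewer cells of a type and less RNA per cell cannot be told apart. From P7 to P14 all 10 markers of red cell precursors fell (median log2 change -4.46), as did all 9 of neutrophil precursors, all 8 of dividing cells, 5 of 7 of macrophages and 4 of 6 of sinusoidal endothelium. Of 7 stellate cell markers, 5 rose and 1 fell (median 0.44). Of all genes, 24% rose and 26.3% fell. Between injections at P14, 9 of 10 red cell markers lay above 0 (median 1.06 on the log2 scale). All mimic values were above all scrambled values in 4 of them. The summed scaled counts of the red cell markers were 657 to 1116 in scrambled and 1177 to 1660 in mimic livers. None of these markers was at 0 in all 3 libraries of either group. For the neutrophil markers the median was 0.57, with 9 of 9 above 0 and 3 separated upward. Their sums were 609 to 1127 in scrambled and 958 to 1410 in mimic livers, which overlapped. For the stellate cell markers the median was -0.23, with 7 of 7 below 0 and 3 separated downward. Their sums were 8267 to 8716 in scrambled and 5648 to 7641 in mimic livers. Of all genes tested, 51.1% lay above 0 in this comparison, 4.96% were separated upward and 4.35% downward. The 10 clock genes summed to 2752 to 2925 in scrambled and 2484 to 2556 in mimic livers. Of the 9 clock genes with a mean of at least 10, 4 lay above 0 and 5 below (median -0.25), and 0 were separated upward and 2 downward. The 7 hepatocyte markers in the table were high in every library, 9763 to 15149 summed, and overlapped at P14. The 6 markers of adrenal cortex, another sterol-making tissue, summed to at most 14 in P14 livers, with 3 of them at 0 in all scrambled and 4 in all mimic livers. In P7 scrambled livers, to which P14 is compared, they summed to 19 to 113, and the 5 skeletal muscle markers to 20 to 1452, against at most 26 and 17 in the other groups. What part these markers had in the enzyme differences was not tested.

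The ratio of Sqle to another enzyme within a library does not depend on the factor by which the library was scaled. At P14 it rests on the values that selected the set and is given as a description. Sqle over Cyp51 was 0.617 ± 0.0423 in P7 scrambled and 0.621 ± 0.0172 in P7 mimic livers (SD, n = 3 each). At P14 it was 0.191 ± 0.0194 in scrambled livers, between 0.172 and 0.211, and 0.350 ± 0.0437 in mimic livers, between 0.306 and 0.393. Of the summed scaled counts per kb of all 10 genes, Sqle made up between 8.93% and 9.55% in the group means at P5 and P7. At P14 it made up 1.79% ± 0.17 in scrambled and 4.71% ± 0.65 in mimic livers. Sc5d took 23.6% ± 0.93 and Ebp 23.0% ± 1.89 of the sum in P14 scrambled livers, against 13.4% ± 0.74 and 12.4% ± 0.64 in P7 scrambled livers.

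**Figure D4:**
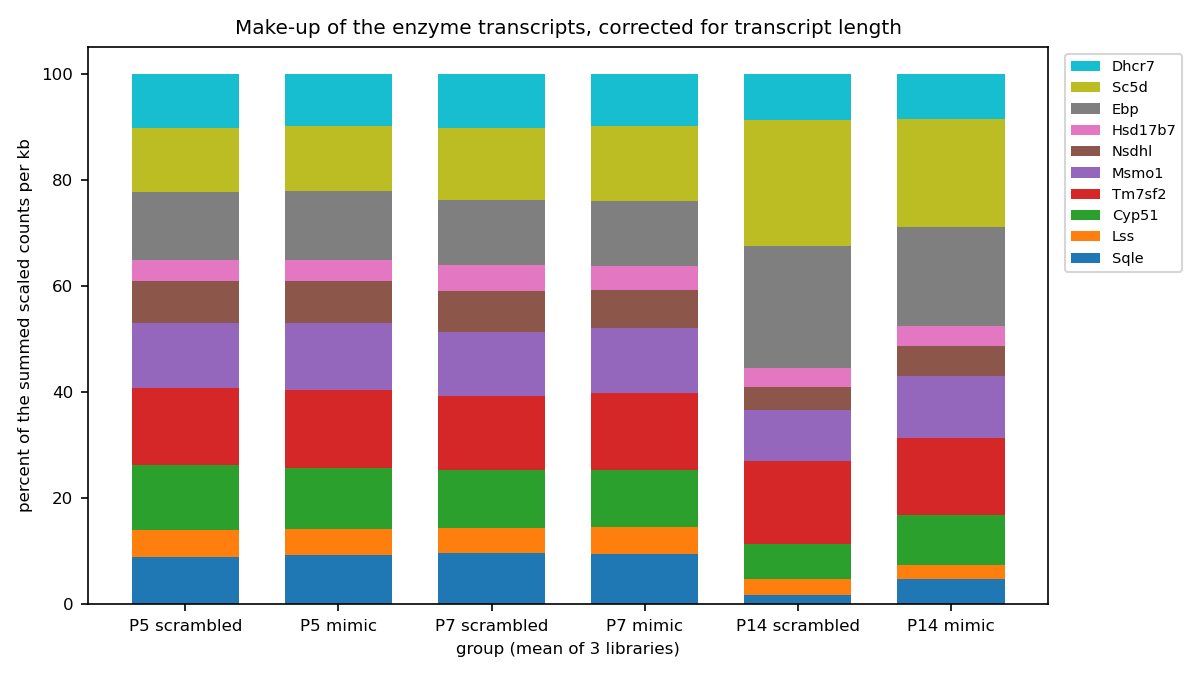
Share of each enzyme in the summed scaled counts per kb of the 10 transcripts (vertical axis, percent) in the 6 groups (horizontal axis), each bar the mean of 3 libraries. The Sqle share, at the foot of each bar, is 1.79% in P14 scrambled and 4.71% in P14 mimic livers, and Ebp and Sc5d take the largest shares at P14.

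Before P14 no enzyme differed between mimic and scrambled livers past the threshold. At P5 all 10 were lower in mimic livers, by log2 differences from -0.05 (Sqle) to -0.22 (Cyp51) with a median of -0.12, against -0.015 for all genes tested. None was called by limma, each with an adjusted p of 1, and of all genes 0% were called, with 266 at an unadjusted p under 0.05. Cyp51 had 968, 1188 and 1257 scaled counts in P5 scrambled and 1027, 913 and 978 in P5 mimic livers, and these overlapped. No enzyme had groups that stood apart at P5, as 5.01% of all genes did in either direction. P5 scrambled replicate 2 was the lowest of its group in Sqle, Lss (405 against 636 and 640) and Hsd17b7 (318 against 487 and 495), and the highest in Tm7sf2 (651 against 460 and 452), Ebp (636 against 444 and 516), Sc5d (1512 against 1236 and 1367) and Dhcr7 (747 against 609 and 720). That library also had the lowest rank correlation of deviations from gene means with transcript length of the 18, -0.376. The part this played was not tested.

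At P7, 9 of the 10 were higher in mimic livers, with log2 differences from -0.02 (Hsd17b7) to 0.23 (Lss) and a median of 0.11, against -0.0046 for all genes tested. Limma called none of the 10, and 0.00709% of all genes (1 gene, with 1073 at an unadjusted p under 0.05). Only Sc5d had all 3 mimic values, 1473, 1605 and 1374, above the scrambled values of 1228, 1311 and 1360. Its difference was 0.19 (SE 0.09, limma adjusted p = 0.658), and 6.52% of all genes tested were separated in that direction. A count of 1 of 10 is near that share.

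The mimic effect at P7 minus that at P5 was positive for all 10 enzymes, from 0.10 (Hsd17b7) to 0.38 (Lss), with a median of 0.24 against 0.012 for all genes. None passed the threshold, and 0% of all genes did (864 at an unadjusted p under 0.05). The lowest adjusted p among the 10 was that of Sc5d (0.30, SE 0.13, limma adjusted p = 0.775). This difference shares its libraries with the P5 and P7 comparisons and adds no separate evidence on either.

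From P5 to P7, averaged over both injections, limma called 26.9% of all genes and none of the 10 enzymes. The log2 changes ran from -0.23 (Cyp51) to 0.14 (Hsd17b7), 8 below 0 and 2 above. Cyp51 had the lowest adjusted p (SE 0.10, limma adjusted p = 0.103). It passed the threshold with quantile normalization (0.0426) and without P5 scrambled replicate 1 (0.0402), P7 scrambled replicate 3 (0.0435) or P7 mimic replicate 2 (0.0463), and Ebp (-0.16, adjusted p = 0.135) passed without P5 scrambled replicate 1 (0.0252). Sqle changed by -0.04 (SE 0.10, limma adjusted p = 0.775).

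Within each group, the libraries highest and lowest in Sqle were compared with those of the other 9 enzymes. In P7 scrambled livers, 8 of the other 9 enzymes were highest in replicate 3, as Sqle was, and in P7 mimic livers 7 of 9 were highest in replicate 2. At P14, 7 of 9 shared the highest library with Sqle in scrambled livers and 6 of 9 in mimic livers. At P5, 0 of 9 did so in scrambled and 2 of 9 in mimic livers. The lowest library was shared with Sqle by 2 and 7 of 9 at P5, in scrambled and mimic livers in that order. It was shared by 5 and 8 of 9 at P7 and by 6 and 6 of 9 at P14. How often other genes share these libraries was not counted. P7 scrambled replicates 2 and 3 carried signal at genes that are silent in the other libraries (0.170 and 3.11 scaled counts per kb, against at most 0.0263 elsewhere). These genes were chosen by a mean scaled count under 0.2 in the other libraries, so the low level elsewhere was set by the choice. Without P7 scrambled replicates 2 and 3, the 8 falls and 2 rises from P7 to P14 were still called.

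The 5 genes outside the set whose pattern over the 18 libraries was closest to that of Sqle were Tnfsf14, Slc25a37, E2f8, Myb and Hrh2. Likeness was measured as the root-mean-square difference of log2 values centred on each gene's mean. It was 0.406 for Tnfsf14, a cytokine of the TNF family, 0.414 for Slc25a37, the mitochondrial iron importer of red cell precursors, 0.442 for E2f8 and 0.443 for Myb, both transcription factors, and 0.445 for Hrh2, a histamine receptor. The median over all tested genes was 1.13. The nearest enzymes of the set were Nsdhl (0.577, rank 158), Lss (0.617, rank 236) and Cyp51 (0.625, rank 261), and the furthest was Sc5d (1.25, rank 11247). These distances include the P14 values that selected the set, and they grow where changes differ in size. With few members among the 14104 tested genes, the ranks are only a description. In P14 scrambled livers Hrh2 averaged 1.67 and Tnfsf14 4.67 scaled counts, both low values, and Myb, E2f8 and Slc25a37 averaged 31.3, 104 and 311.

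The other genes of cholesterol handling were counted from lists chosen with earlier results known. Of the 8 genes counted from acetyl-CoA to squalene, 4 fell (Idi1, Mvd, Hmgcs1 and Mvk) and none rose from P7 to P14, with a median log2 change of -0.23, where 26.3% of all genes fell and 24% rose. Idi1, which isomerizes isopentenyl pyrophosphate, fell by 1.59 (SE 0.18, limma adjusted p = 1.63e-06). Fdft1, which makes the squalene that Sqle uses, changed by -0.10 (SE 0.06, limma adjusted p = 0.179). It passed the threshold with the length correlation as a covariate (-0.20, limma adjusted p = 0.0464).

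Of 4 genes counted for last or parallel steps, 1 fell, Lbr, another reductase of the double bond at carbon 14, by 1.16 (SE 0.08, limma adjusted p = 3.69e-09), a count near the 26.3% of all genes that fell. Of 5 genes counted for SREBP2 control and sterol transport, 1 rose (Insig2) and 2 fell (Srebf2 and Stard4), where 24% of all genes rose and 26.3% fell. Of 8 genes of sterol disposal, 3 rose and 3 fell, counts read against those same shares. Among the falls was that of Abca1, a sterol exporter (-0.36, limma adjusted p = 0.0191), which was 0.0273 with the length covariate and was not called without P7 scrambled replicate 2 (adjusted p = 0.0637), P7 mimic replicate 1 (0.0504) or P14 mimic replicate 1 (0.0584), or without P7 scrambled replicates 2 and 3 together (0.0984). Cyp27a1, an early enzyme of bile acid synthesis, had the largest rise, 0.91 (SE 0.07, limma adjusted p = 1.09e-08). From P5 to P7, 6 of these 8 rose, as did 13.7% of all genes, and the largest rise was that of Abca1 with 0.73 (SE 0.12, limma adjusted p = 0.00191). With the length correlation as a covariate limma called no gene at all between P5 and P7.

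In the P14 comparison between injections, again as a description, 4 of the 8 genes from acetyl-CoA to squalene had all mimic values above all scrambled values, as had 4.96% of all genes. Idi1 was among them, with 12, 15 and 12 scaled counts in scrambled and 21, 39 and 25 in mimic livers, and the other 3 were Mvd, Fdps and Hmgcs1. Fdps was low, with 8, 8 and 9 scaled counts in scrambled and 14, 10 and 14 in mimic livers. Fdft1, with a log2 difference of -0.02, overlapped. Of the sterol disposal genes, 7 of 8 had log2 differences below 0 (median -0.15), with Abcg1 and Abcg5 wholly below in mimic livers, as was Por of the last or parallel steps. Of all genes tested, 4.35% were wholly below. Of the 5 genes counted for SREBP2 control and sterol transport, 0 were separated at P14. At P7, 5 of the 5 counted had all mimic values above all scrambled values, against 6.52% of all genes, and limma called 0 of them. The difference between these days was not tested.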

How the data were processed

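Poly(A) RNA of 18 livers was sequenced as stranded libraries, per the labels' protocols. The tools named in the submitters' processing notes are DESeq2 1.26.0, featureCounts 1.6.5, STAR 2.6.1d, Trimmomatic 0.39 and Picard 2.21.7, and the build is GRCm38 (mm10). The values are deposited as whole-number scores, judged from the values to be gene counts scaled by a size factor and rounded, so no count model was used and the read depth of each library is unknown. Fold changes on the log2(value + 1) scale understate changes of low genes.

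Groups came from the sample titles. Genes with a mean of at least 10 (14104 of 31165, 45.3%) were tested with limma 3.58.1 in R 4.3.3: 6 group means over all 18 libraries, moderated by eBayes with a trend in the variance (degrees of freedom: 12 residual, 6.49 prior), and Benjamini-Hochberg adjustment over all genes tested, with a threshold of 0.05. The script was tested on simulated data. Age steps were averaged over both injections. In the fit, which gives all groups 1 variance, the mean of the P14 groups is uncorrelated with their difference, which selected the set; for Sqle their SDs were 7.02 and 43.0 scaled counts.

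The members and lists were chosen with earlier results of these data known. Named genes were the 10 members, the 5 genes nearest to Sqle, Fdft1, and the pathway-list gene with the largest called rise and fall per tested comparison; other list genes were named after their values were seen. Some genes of the pathway lists are not reported here and were left out of the list counts. Of 18 replicate pairs, 0 held identical values. Alternatives were another pseudocount (5), no filter or a minimum mean of 50, TMM and quantile scaling, no trend, only the libraries compared, the replicate number as a block, length correlation as a covariate, and leaving out libraries.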

Additional observations from a re-analysis of the deposited data

How the results depend on the processing

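Of the 10 enzymes' values under all alternatives, 1085 kept their direction and, where tested, their side of the threshold. Of the others, 9 lost and 5 gained a call, and 21 changed sign. The P14 comparison between injections is included, and as it was not tested for the enzymes, only its direction was counted. The age falls of Sqle, Lss, Cyp51, Msmo1, Nsdhl, Hsd17b7 and Dhcr7 were called in every alternative run.

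Counts over all genes moved more. At P14 (3 calls) a pseudocount of 5 gave 5 calls and leaving out a library 3 to 16. At P7 (1 call) there were 3 with no filter, 4 with quantile normalization, 7 with only the libraries compared, 19 without P7 scrambled replicates 2 and 3, 0 with a minimum mean of 50, no trend or the length covariate, and 0 to 13 without 1 library. At P5 (0 calls) leaving out a library gave 0 to 1. The difference of the effect between P5 and P7 (0 calls) gave 14 without P7 scrambled replicates 2 and 3, and 0 to 5 without 1 library. From P5 to P7 (3798 calls) there were 0 with the length covariate, 1470 without those 2 libraries, and 1988 (without P7 mimic replicate 1) to 5072 without 1 library. From P7 to P14 (7100 calls) the length covariate gave 3303 and leaving out those 2 libraries 4651. In P7 to P14, 3391 genes rose and 3709 fell, against 4292 and 3145 with quantile normalization. The cause of these changes was not tested.

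The replicate block gave 3 calls at P7 and 7 at P14 and changed no call of the 10 enzymes. The labels do not say whether the replicate numbers pair the samples, and with 3 libraries a group the correlations below cannot settle it. Deviations from group means were correlated between the mimic and scrambled libraries of a day. For same-numbered libraries the correlation ran from -0.234 to 0.244, with 2 of 9 pairs above 0.1. Of the mimic libraries, 3 of 9 correlated best with their own number.

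The following values changed sign. TMM gave Hsd17b7 at P7 0.0287. With the length covariate, P5 to P7 changes were 0.0368 for Sqle, 0.0797 for Cyp51, 0.15 for Tm7sf2, 0.0674 for Msmo1, -0.0249 for Hsd17b7, 0.14 for Ebp, 0.10 for Dhcr7 and 0.0828 for Fdft1, and the P7 to P14 change of Abca1 was 0.0273 in place of the called -0.36. Leaving out 1 library gave these ranges. At P5 they were -0.14 to 0.0287 for Sqle, -0.19 to 0.0768 for Tm7sf2 and -0.22 to 0.0361 for Ebp. At P7 they were -0.0208 to 0.22 for Cyp51, -0.0516 to 0.14 for Nsdhl, -0.0614 to 0.050 for Hsd17b7, -0.0031 to 0.13 for Dhcr7 and -0.0511 to 0.11 for Cyp27a1. At P14 they were -0.13 to 0.0075 for Ebp and -0.0614 to 0.0219 for Fdft1. The P5 to P7 change of Sqle ran from -0.0873 to 0.0075, and the difference between days from -0.0123 to 0.31 for Hsd17b7.

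Precision was limited by the 3 libraries of each group, and read depth was not known.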
